A study of Rattus norvegicus with 32 samples.

Results

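Alb, Fgg, C4bpa and Mst1 are genes whose protein products the liver secretes into the plasma, and each had signal in the normal mammary gland of rats. All probe sets that carry these 4 symbols were taken, which gave 8 probe sets among the 8799 of the array and 4 genes among the 4737 that have a probe set of their own. Alb had 4 probe sets, Fgg had 2, and C4bpa and Mst1 had 1 each. The genes were chosen because their levels differ among these arrays, so their levels are described here without p-values, nothing is read from how often they were called, and tests are given for other genes. Normal mammary gland was measured on 5 arrays in each of 6 groups. These were the strains Cop and F344, their F1 hybrid, and the strains ACI, BUF/N and WF. A Cop pool and an F344 pool added 1 array each. No treatment is named for any group, and age, sex, stage of the oestrous cycle and batch are not given in the sources used here, nor is the number of samples in a pool. Resistance to induced mammary cancer is a known trait of Cop rats, while F344, BUF/N and WF are susceptible, and the title of the series names inherited susceptibility as its subject. RNA came from bulk tissue, so fewer cells of a type and less RNA per cell cannot be told apart. Nothing in the labels states that replicates are different animals, so the p-values measure only the spread between these samples, which may be technical.

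Albumin, encoded by Alb, is the main protein of plasma and carries fatty acids, hormones and metals. Fgg encodes the gamma chain of fibrinogen, which the liver assembles with the alpha and beta chains (Fga and Fgb) and which thrombin turns into fibrin in a clot. C4bpa encodes the alpha chain of C4b-binding protein, which slows the classical pathway of complement by holding C4b, and whose beta chain (C4bpb) binds protein S (Pros1). Mst1 encodes macrophage-stimulating protein, a relative of hepatocyte growth factor that circulates as an inactive precursor, is cut by serine proteases of the hepsin type and acts through the receptor RON. In the liver these genes are driven by factors such as HNF1, HNF4 and C/EBP, and the fibrinogen genes are raised by interleukin-6 in the acute phase response. The mammary gland holds fat cells, luminal and myoepithelial cells, vessels and immune cells, and it is not known as a main source of plasma proteins.

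The 250 bases before the start site are shown for the 3 genes whose levels set Cop apart from F344, because sequence of this kind is where liver control elements of plasma protein genes lie. The letters are RefSeq sequence of build GRCr8, a reference genome and not that of these strains, written 5′ to 3′ on the strand of the gene. Alb lies at chr14:17906980-17907229 on the minus strand, Fgg at chr2:170652833-170653082 on the plus strand and C4bpa at chr13:44663472-44663721 on the minus strand. Capitals mark matches on either strand to 1 of 6 short motifs, which did not overlap one another in these windows.
Alb: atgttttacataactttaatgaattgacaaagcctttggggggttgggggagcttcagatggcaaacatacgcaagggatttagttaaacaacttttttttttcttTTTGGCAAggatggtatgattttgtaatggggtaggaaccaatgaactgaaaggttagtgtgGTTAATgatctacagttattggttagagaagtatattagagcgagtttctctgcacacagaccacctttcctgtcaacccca
Fgg: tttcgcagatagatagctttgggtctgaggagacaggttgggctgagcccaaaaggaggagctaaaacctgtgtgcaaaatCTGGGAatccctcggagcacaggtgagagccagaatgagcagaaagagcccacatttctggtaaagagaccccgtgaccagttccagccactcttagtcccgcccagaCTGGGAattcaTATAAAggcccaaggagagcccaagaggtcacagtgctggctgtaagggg
C4bpa: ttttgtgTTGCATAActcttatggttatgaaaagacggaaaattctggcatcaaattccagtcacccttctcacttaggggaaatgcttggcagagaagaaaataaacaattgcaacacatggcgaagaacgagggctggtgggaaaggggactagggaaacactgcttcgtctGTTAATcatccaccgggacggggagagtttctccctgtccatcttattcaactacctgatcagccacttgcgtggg
The C/EBP core TTGCNNAA matched at -144 from the start site in Alb, on the reverse strand, and at -243 in C4bpa. The HNF1 core GTTAAT matched at -82 in Alb and at -76 in C4bpa. Fgg held neither, and instead had the core of the interleukin-6 element, CTGGGA, at -169 and -61, and TATAAA at -50. CAAAGT, a core of HNF4 sites, and TTCNNNGAA, the palindrome of STAT factors, matched in none of these 3 windows, and the window of Mst1 held no match to any of the 6. Among 33469 rat promoter windows of this length, 9.2% held the C/EBP core, 6.5% the HNF1 core, 25.7% CTGGGA, 12.9% TATAAA, 12.9% CAAAGT and 7.7% TTCNNNGAA. These are matches of letters and not measured sites.

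Values are signals in arbitrary units that each array's own scaling brings to a common level, so levels of different probe sets are not compared. The floor was 18.3, which is the 25th percentile of the signals, and anything lower was set to it. Probe sets were fitted if their signal exceeded the overall median of 78.4 on 5 or more of the 30 arrays, which held for 7 of the 8. The exception was the Alb probe set rc_AA860062_at, which lay between 5.8 and 57.1 on the 30 arrays, below the median on all of them and with overlapping ranges in all groups. The median signal per array ran from 65.8 to 102.1. It was highest on ACI 2 and ACI 5 (102.1 and 101.8) and lowest on F1 3 and F1 2 (65.8 and 67.1). Luminal, myoepithelial and fat cell markers were present, with 16 of 18, 8 of 8 and 15 of 16 genes on the array passing the filter. Of 35 hepatocyte genes on the array other than secreted proteins, 10 passed it, 19 stayed below the overall median on all 30 arrays, and 4, among them Tdo2, Cyp3a2 and Onecut1, never reached the floor.

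The array F1 2 stood apart for some liver and plasma protein genes. Among 121 other liver and plasma protein genes with a signal above the floor on any array, F1 2 was the highest of the 30 arrays for 28, followed by ACI 5 with 17, ACI 2 with 13 and WF 1 with 10. For 6 of them it exceeded the next array, or the floor where that was higher, by at least 2-fold. Transthyretin (Ttr), a thyroid hormone carrier, was at 269.5 on F1 2, at 37.3 to 54.8 on the other 4 F1 arrays and at no more than 102.2 elsewhere. Fetuin-A (Ahsg) was at 216.3 on F1 2 against 1.1 to 8.5 on the other F1 arrays. Apolipoprotein A-II (Apoa2) was at 137.1 against 6.6 to 9.6, and the liver fatty acid binding protein Fabp1 at 77.3 against 0.7 to 1.5. The other 2 genes were Apoc1 (294.3, next 113.4) and Serpina3c (135.3, next 21.3). Of the hepatocyte genes other than secreted proteins, Fabp1, Cyp2c7 (22.8, next 9.0) and Baat (27.4, next 24.2) were highest on F1 2. Only Fabp1 among them was so by at least 2-fold. Other arrays led for as many such genes or more. BUF/N 3 was highest for Otc, Cyp2c11, Akr1d1, Cyp7a1 and Ugt2b, and ACI 5 for Slc10a1, Cps1, Gckr and Hnf4a. Hnf4a was at 6.3 there, and Tdo2 was below the floor on all 30 arrays. Alb was high on this array too, as given below, and the F1 means of Alb are therefore given with and without it, a choice made after these values were seen. The correlations of Alb over 30 arrays include it.

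**Figure D1:**
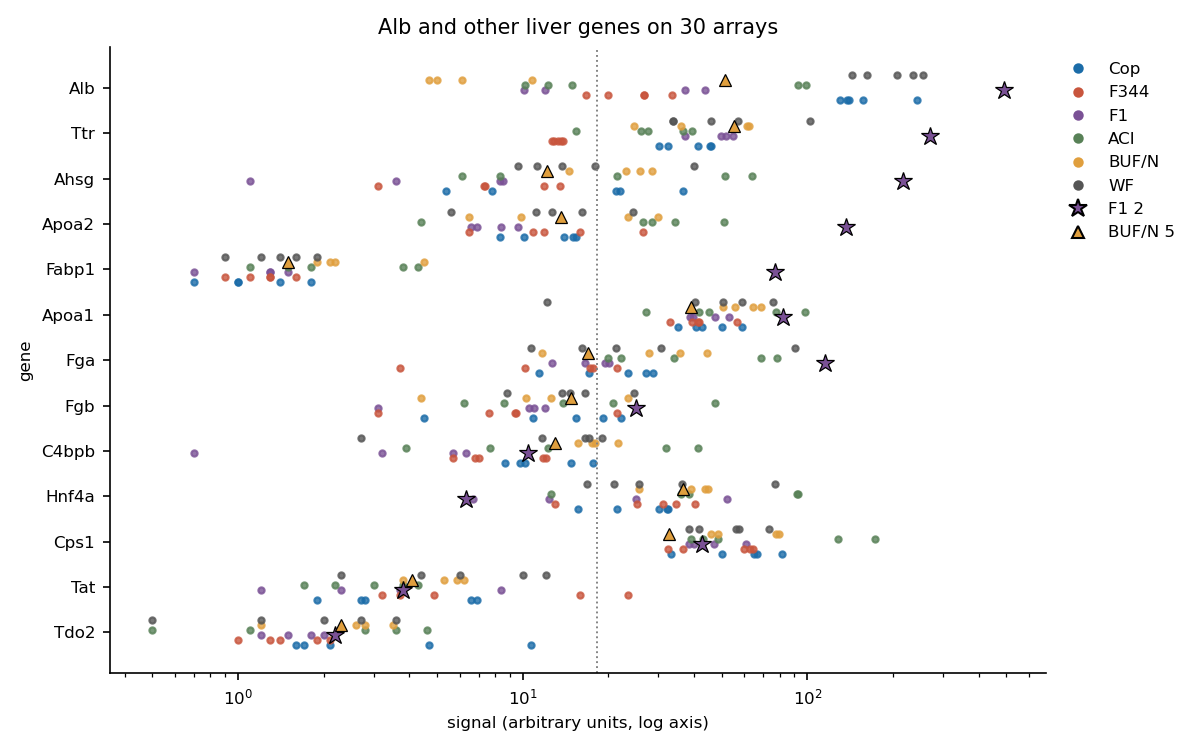
Signals of Alb (probe set rc_AA945321_at) and other liver genes (rows) on the 30 single arrays (x axis, arbitrary units, log axis; points are arrays coloured by group, the dotted line is the floor of 18.3). The star marks F1 2, which was the highest array for Alb at 490.0, Ttr at 269.5, Ahsg at 216.3, Apoa2 at 137.1 and Fabp1 at 77.3; the triangle marks BUF/N 5, and signals under the left end of the axis are drawn at that end.

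Alb was high in WF and Cop, intermediate in ACI, lower in F344 and lowest in BUF/N. On its brightest probe set, rc_AA866237_s_at, the WF signals were 352.3, 384.3, 424.7, 353.6 and 470.5 in replicates 1 to 5, with a mean of 397.1 ± 50.5 (SD, n = 5). The Cop signals were 548.3, 364.5, 320.4, 427.1 and 295.8 (391.2 ± 101, SD, n = 5). The F344 signals were 183.7, 161.1, 131.5, 161.8 and 113.2 (150.3 ± 27.8, SD, n = 5). Every WF and every Cop array thus lay above every F344 array, and WF and Cop overlapped. The ACI signals were 179.3, 116.3, 244.8, 229.6 and 298.0 (213.6 ± 68.9, SD, n = 5), of which the highest reached into the range of Cop. The BUF/N signals were 62.5, 69.6, 69.7, 65.2 and 198.9 (93.2 ± 59.2, SD, n = 5). Of these, 4 lay within a narrow band below all other strains, and BUF/N 5 was at the level of ACI. Without it the BUF/N mean was 66.8 ± 3.53 (SD, n = 4).

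The F1 hybrid did not sit at the level of its high parent. Its Alb signals were 198.5, 626.3, 102.8, 162.6 and 137.1, and the array at 626.3 was F1 2. The F1 mean was 245.5 ± 216 (SD, n = 5) with that array and 150.3 ± 40.4 (SD, n = 4) without it, beside 150.3 in F344. The fitted difference of F1 from the mean of its parents was -0.28 (log2, SE 0.296) and -0.70 (SE 0.248) without F1 2. Between the parents, Cop exceeded F344 by 1.37 on the log2 scale (SE 0.341), a ratio of 2.58. In the order of group means WF, Cop, F1, ACI, F344 and BUF/N, each pair of neighbours overlapped in range. The third place of F1 rested on F1 2, since without it the F1 mean of 150.3 lay below ACI and level with F344.

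WF and Cop were also the highest groups on rc_AA945321_at and rc_AA860062_g_at, but not on the dim rc_AA860062_at. On rc_AA945321_at the WF arrays were at 161.7, 206.9, 143.8, 234.8 and 255.3, and the Cop arrays at 242.5, 130.6, 140.3, 156.8 and 137.6. The F344 arrays were at 26.7, 20, 33.6, 26.6 and 16.7, so Cop and WF both lay wholly above F344, and Cop exceeded F344 by 2.68 (log2, SE 0.603). The F344 signals lay near the floor, and this difference ran from 1.482 to 2.711 under the alternatives of processing given below. In BUF/N the values were 10.8, 4.7, 5.0, 6.1 and 51.3, with 4 of 5 below the floor and BUF/N 5 again the highest. The F1 arrays were at 43.6, 490.0, 10.1, 37.1 and 12, where F1 2 exceeded every other array of the series. Without F1 2 the F1 mean on this probe set fell from 118.6 ± 208 (SD, n = 5) to 25.7 ± 17.1 (SD, n = 4). In ACI, 2 arrays (ACI 3 and ACI 4, at 98.6 and 93.1) were bright and the other 3 (12.3, 10.2 and 14.9) were below the floor. On rc_AA860062_g_at, Cop lay between 165.8 and 211.1 and F344 between 58.3 and 85.9, a difference of 1.46 (log2, SE 0.377), and the F1 mean was 132.6 ± 132 (SD, n = 5) with F1 2 and 74.3 ± 23.1 (SD, n = 4) without it. Across the 30 arrays this probe set correlated with the brightest one at r = 0.94 and rc_AA945321_at did so at r = 0.881, while deviations from the group means correlated at r = 0.851 and 0.788. These correlations are over arrays that share their group and their scaling.

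BUF/N 5, the bright BUF/N array for Alb, did not share the pattern of F1 2 in other liver genes. It had Ttr at 55.1, the median of BUF/N, and Ahsg at 12.2, Apoa2 at 13.6 and Fabp1 at 1.5. Of the 121 liver and plasma protein genes it was the highest array for 2. Blood cell markers are given beside Alb as measured. Their summed signal over 9 genes ran from 3552.1 to 8080.1 in Cop, 5147.3 to 9694.2 in F344, 2577.2 to 3642.9 in ACI, 2730.0 to 5744.7 in BUF/N, 4935.5 to 6242.5 in WF and 4476.5 to 6522.2 in F1. The genes of the list differed in pattern. The beta-globin gene Hbb had means of 4355 in F344, 3081 in F1, 3058 in Cop, 3044 in WF, 1989 in BUF/N and 985.5 in ACI. The alpha-globin gene Hba-a3 was at 134.6 in BUF/N, 118.2 in ACI, 96.1 in WF and 21.8 to 29.7 in F344, Cop and F1, and Pf4 of platelets was highest in Cop at 981.3. The groups overlapped in part, and the correlation of Alb with the mean of 8 blood cell genes over the 30 arrays was r = 0.13. Their part in the levels of Alb was not tested.

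**Figure D2:**
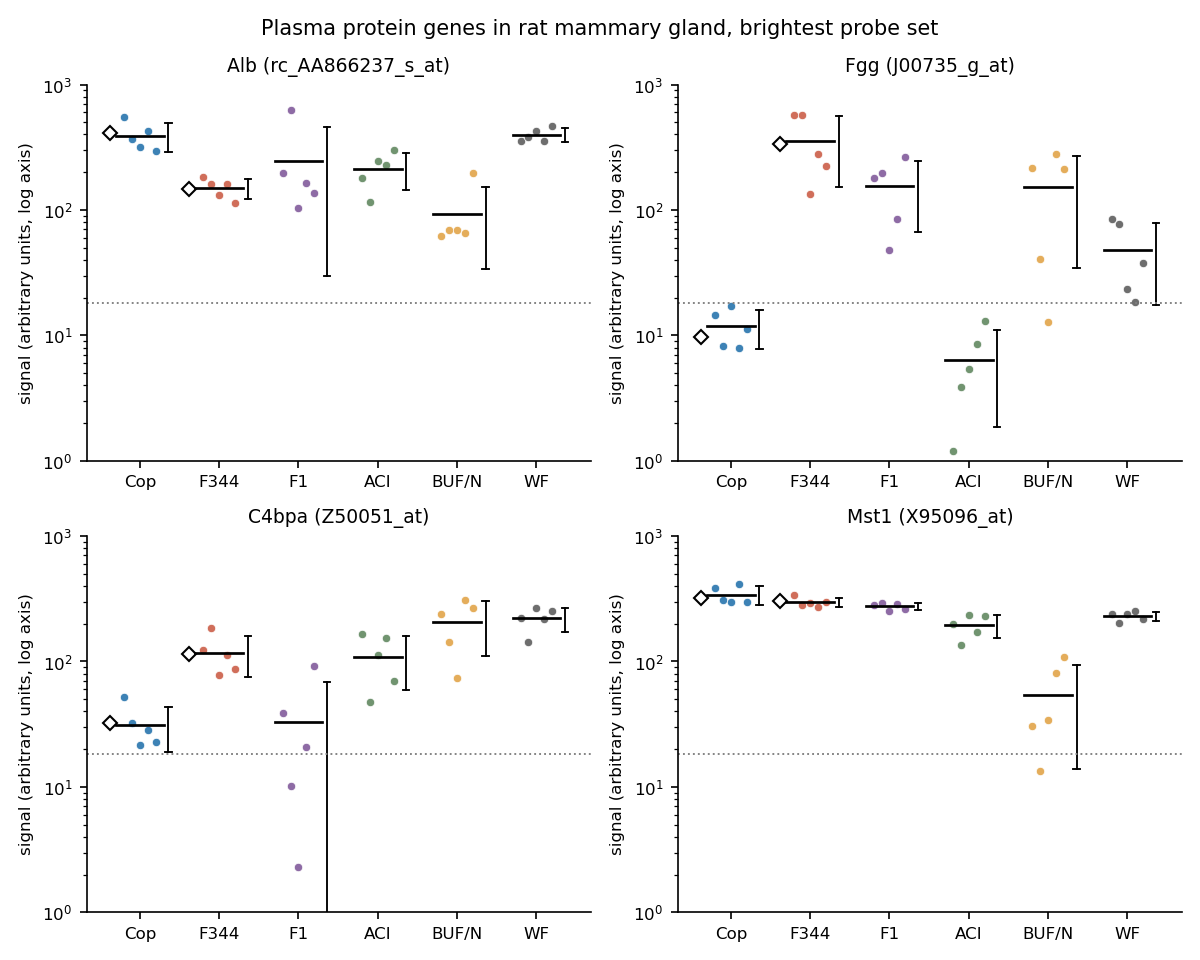
Signal of Alb, Fgg, C4bpa and Mst1 on the brightest probe set of each (y axis, arbitrary units, log axis) in the 6 groups of 5 arrays (x axis). Points are arrays, open diamonds the Cop and F344 pools, horizontal lines group means and vertical bars mean ± SD (bars that reach the bottom of the axis run below it); the dotted line is the floor of 18.3, below which all 5 Cop and all 5 ACI arrays of Fgg lay.

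On its brighter probe set, J00735_g_at, Fgg lay above the floor on all F344, F1 and WF arrays and on 4 of 5 BUF/N arrays, and below it on all Cop and ACI arrays. The dimmer probe set, given further on, did not show this split. On J00735_g_at the Cop arrays were at 14.5, 8.2, 17.2, 8.0 and 11.2. The ACI arrays were at 1.2, 3.9, 5.4, 8.5 and 13.1. All 10 arrays of these strains were thus below 18.3. The F344 arrays were at 568.8, 573.4, 134.3, 278.7 and 225.6 (356.2 ± 203, SD, n = 5). F344 was therefore at least 16.8-fold above Cop, taking Cop at the floor, and at least 16.8-fold above ACI, with no overlap. The fitted difference of Cop from F344 was -4.07 on the log2 scale (SE 0.580), and its size is set by the floor: it was -4.768 and -2.698 with the floor at the 10th and 40th percentile.

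The hybrid was above the floor on all 5 arrays of this probe set, as F344 was. The F1 arrays were at 180.9, 198.1, 47.9, 84.6 and 265.1 (155.3 ± 88.1, SD, n = 5). This was at least 7.16-fold above Cop, without overlap, and below F344 on average (356.2), with overlap. On the log2 scale F1 lay 0.303 of the way from F344 to Cop, and its difference from the mean of the parents was 0.80 (SE 0.502), a value that the floor in Cop also moves. BUF/N had the largest spread relative to its mean, at 215.5, 40.7, 12.9, 277.9 and 211.5 (151.7 ± 117, SD, n = 5). BUF/N 3 was below the floor while 3 arrays exceeded 200, so its range overlapped those of all other groups. The WF arrays were at 85.1, 77.2, 23.5, 18.5 and 37.6 (48.4 ± 30.9, SD, n = 5), at least 2.21-fold above Cop and below all 5 F344 arrays. In the order F344, F1, BUF/N, WF, Cop and ACI, WF and Cop were the only neighbours whose ranges did not overlap.

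The second probe set of Fgg, J00735_at, was dimmer and did not separate the groups. It passed the filter with exactly 5 arrays above the median. Its F344 arrays were at 95.8, 132.7, 50, 74.7 and 57.1 and its Cop arrays at 23.0, 50.5, 30, 39.5 and 15.2. These overlapped by 1 array, and the fitted difference of Cop from F344 was -1.35 (log2, SE 0.457), of the same direction as on J00735_g_at. In ACI this probe set read 97.9 on ACI 2 and 91.6 on ACI 5, where J00735_g_at read 3.9 and 13.1, so the 2 probe sets disagreed on the arrays with the highest median signals. The other ACI arrays were at 31.6, 21.2 and 18.3. Over the 30 arrays the 2 probe sets correlated at r = 0.591, as a description.

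**Figure D3:**
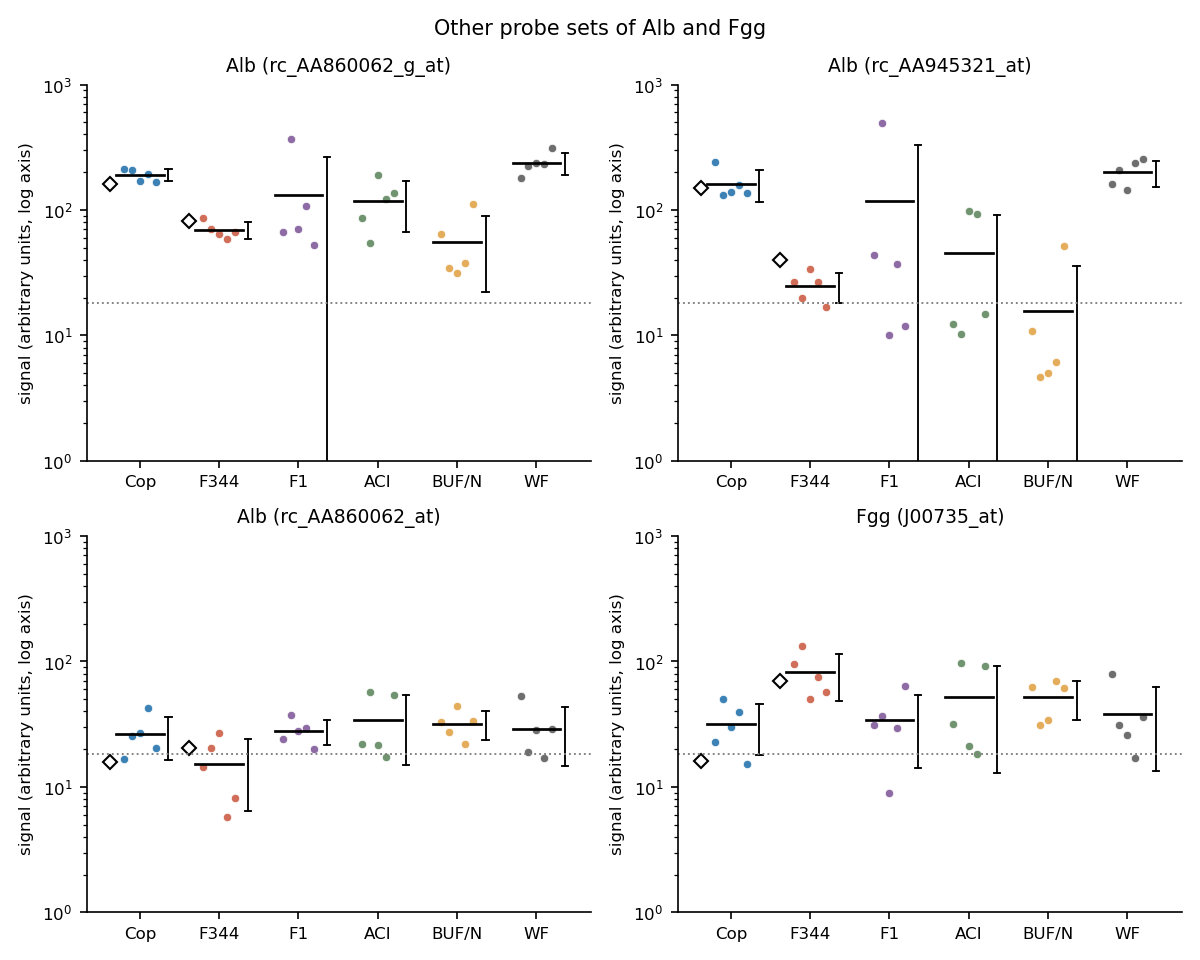
Signal of the remaining 3 Alb probe sets and the second Fgg probe set (y axis, arbitrary units, log axis) in the 6 groups of 5 arrays (x axis). Points are arrays, open diamonds the pools, horizontal lines means and vertical bars mean ± SD (bars that reach the bottom of the axis run below it). WF and Cop were highest on 2 of the Alb probe sets, and all groups overlapped on rc_AA860062_at.

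C4bpa was low in Cop and F1 and higher in the other 4 groups. The Cop arrays were at 51.9, 32.1, 21.6, 28.2 and 22.8 (31.3 ± 12.3, SD, n = 5). The F344 arrays were at 123.2, 185.0, 77.9, 112.2 and 87.9 (117.2 ± 42, SD, n = 5). Every F344 array lay above every Cop array, and the fitted difference of Cop from F344 was -1.91 (log2, SE 0.412), a ratio of 3.77. It was -1.213 with the floor at the 40th percentile and -1.019 with an offset of 50 in place of the floor. The WF arrays were at 222.7, 143.1, 265.8, 219.0 and 253.1 (220.7 ± 47.7, SD, n = 5). The BUF/N arrays were at 238.1, 143.4, 74.1, 307.6 and 265.3 (205.7 ± 95.1, SD, n = 5). Both lay wholly above Cop, WF by 7.27-fold and BUF/N by 6.17-fold in the fit, and both overlapped F344. The ACI arrays were at 164.1, 47.6, 111.8, 152.5 and 70.2 (109.2 ± 50.5, SD, n = 5), and the lowest of them, ACI 2, lay below the highest Cop array.

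In the hybrid C4bpa resembled Cop in level. The F1 arrays were at 38.9, 10.2, 2.3, 20.9 and 91.9 (32.8 ± 35.8, SD, n = 5), beside a Cop mean of 31.3. Cop differed from F1 by -0.02 on the log2 scale (SE 0.412), and 1 F1 array of 5 reached the range of F344. F1 2 and F1 3, the arrays of low median signal, were the lowest, and without both the F1 mean was 50.6 ± 36.9 (SD, n = 3). The difference from the mean of the parents was -0.93 (SE 0.357), and it ran from -1.34 to -0.75 when each array of the series was left out in turn. Under the alternatives of processing given below it ran from -1.483 to -0.442. In the order WF, BUF/N, F344, ACI, F1 and Cop, all neighbours overlapped in range.

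**Figure D4:**
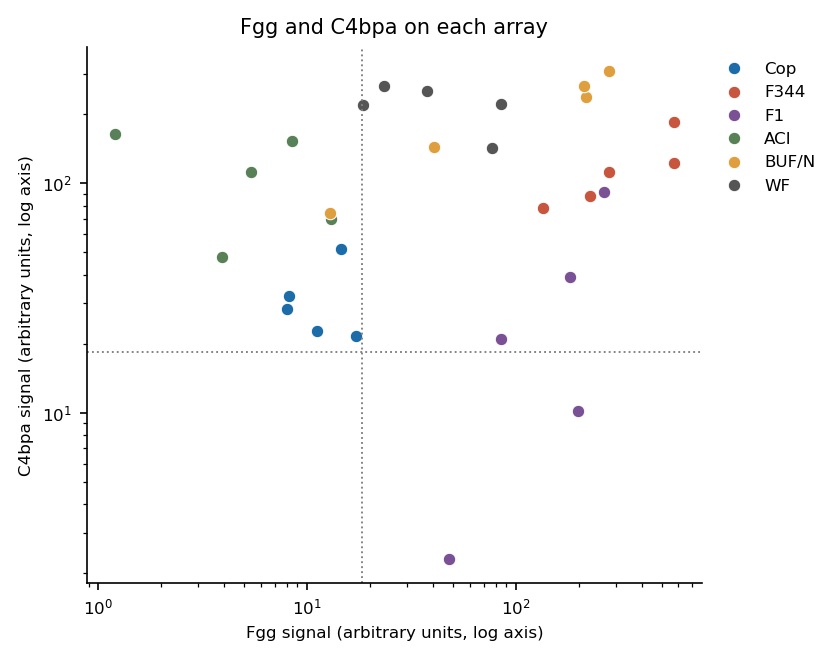
Signal of Fgg (x axis) and C4bpa (y axis) on each of the 30 single arrays, in arbitrary units on log axes, coloured by group; dotted lines mark the floor of 18.3. Cop lies low for both genes, ACI is below the floor for Fgg only (probe set J00735_g_at), and the F1 arrays have Fgg at 47.9 to 265.1 with C4bpa at 2.3 to 91.9.

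Fgg and C4bpa, both higher in F344 than in Cop, did not keep together in the other groups. ACI had C4bpa signal of 47.6 to 164.1 with Fgg below the floor on all 5 arrays of J00735_g_at, the probe set used in this comparison, and F1 had Fgg at 47.9 to 265.1 with C4bpa at 2.3 to 91.9. WF had the highest mean of C4bpa and the lowest mean of Fgg among the groups with Fgg above the floor. Over the 30 arrays the 2 genes correlated at r = 0.248, and their deviations from group means at r = 0.561. Within F344 both genes ordered the 5 arrays alike, from replicate 3 as the lowest through 5, 4 and 1 to 2 as the highest. In BUF/N replicates 3 and 2 were the lowest and replicate 4 the highest for both. The orders differed in WF, where Fgg was lowest in replicate 4 and C4bpa in replicate 2. In Cop and ACI all Fgg signals were below the floor and have no order. In F1 replicate 3 was the lowest and replicate 5 the highest for both. These orders are descriptions of 5 arrays each.

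Mst1 had its low point in BUF/N. The BUF/N arrays were at 30.6, 13.5, 34.0, 81.6 and 109.2 (53.8 ± 40, SD, n = 5). The Cop arrays were at 385.2, 307.1, 297.0, 418.2 and 296.5 (340.8 ± 57, SD, n = 5). The F344 arrays were at 337.1, 280.0, 292.2, 269.4 and 297.1 (295.2 ± 25.8, SD, n = 5). Cop and F344 overlapped and differed by 0.20 (log2, SE 0.283). The F1 arrays were at 280.0, 291.6, 253.2, 286.9 and 261.2 (274.6 ± 16.6, SD, n = 5), the narrowest spread of any group. F1 overlapped F344 and lay below all 5 Cop arrays, and it differed from the mean of its parents by -0.20 (SE 0.245).

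Below the parents and the hybrid came WF and ACI. The WF arrays were at 239.3, 203.8, 238.1, 251.8 and 218.1 (230.2 ± 19.1, SD, n = 5), all below every F1 array. The ACI arrays were at 198.3, 136.4, 233.6, 170.4 and 231.3 (194 ± 41.4, SD, n = 5) and overlapped WF. All 5 BUF/N arrays lay below all ACI arrays, and BUF/N differed from the mean of the other 4 strains by -2.54 (log2, SE 0.223), a ratio of 5.80. This difference ran from -2.623 to -1.653 under the alternatives of processing given below. In the order Cop, F344, F1, WF, ACI and BUF/N, only F1 and WF, and ACI and BUF/N, were neighbours without overlap. BUF/N was thus the lowest group for Mst1 and for Alb and was high for C4bpa.

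The pools, measured on 1 array each, are given beside the single samples. Alb read 410.4 in the Cop pool and 145.8 in the F344 pool on the brightest probe set, and 150.9 and 40.2 on rc_AA945321_at. Fgg read 9.7 and 333.3 on J00735_g_at, so the Cop pool was below the floor. C4bpa read 32.4 and 114.7, and Mst1 read 319.5 and 301.4. Each of these values lay within the range of the 5 single arrays of its strain, apart from the F344 pool of Alb on rc_AA945321_at, which was above its highest single array (33.6). On rc_AA860062_g_at Alb read 161.4 in the Cop pool and 81.3 in the F344 pool. The Cop pool lay below its lowest single array there (165.8), and on the dim rc_AA860062_at too (15.9 against 16.7). The labels do not say whether the pools hold the single samples, and they are counted as no further replicates.

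In the fits, 6 of the 7 probe sets of these genes that passed the filter had an adjusted p under 0.05 in limma's F test over the 6 groups, beside 51.8% of all 5040 tested. For Cop against F344, 3 were called higher (all Alb, beside 1.69% of all) and 2 lower (J00735_g_at of Fgg and C4bpa, beside 1.77%). For F1 against the mean of its parents, 0 were called higher (17.3% of all) and C4bpa was called lower (17.9%). For Cop and F344 against BUF/N and WF, Mst1 was called higher (14.3%) and C4bpa lower (19.7%). For BUF/N against the mean of the other 4 strains, C4bpa was called higher (8.43%) and 3 Alb probe sets and Mst1 lower (9.6%). The genes were chosen on these contrasts, and nothing is read from these counts.

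The partner chains of the same protein complexes did not pass the filter on low signals. Fga, beside Fgg in the RefSeq gene order, had group means of 14.0 in F344 to 44.6 in ACI, and its highest array was F1 2 at 115.7. Fgb, the next gene along, had group means of 10.2 to 19.4 with 22 of 30 arrays below the floor. Neither passed the filter. F344, the highest group for Fgg on J00735_g_at, had the lowest group mean of Fga (14.0 ± 7.07) and of Fgb (10.2 ± 6.82, SD, n = 5), with no level compared between the genes. C4bpb, near C4bpa in the same order, was below the floor on 26 of 30 arrays and had group means of 5.26 in F1 to 19.4 in ACI. Afp, next to Alb, did not pass the filter (group means 21.1 to 53.1). Of other genes close to the 4, Cxcl6, a chemokine near Alb, differed among groups (adjusted p = 0.00370 in limma's F test), with 65.6 in Cop, 69.1 in F344 and 122.0 to 126.1 in BUF/N, WF and ACI. Cxcr4, a chemokine receptor near C4bpa, differed too (adjusted p = 0.0412 in limma), with means from 204.7 in Cop to 370.2 in BUF/N. Afm near Alb (0.134), Plrg1 and Gucy1a1 near Fgg (0.605 and 0.636), Cd55 near C4bpa (0.248) and Apeh and Nicn1 near Mst1 (0.0752 and 0.165) did not pass.

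A wider list of 139 plasma protein genes other than the 4 covered carriers, apolipoproteins, coagulation, complement and acute phase proteins. Of these, 94 were on the array and 46 passed the filter, while 31 stayed below the overall median on all arrays, among them Fgb, C4bpb, F2, F9, Proc and Apoh. In limma's F test 29 of the 46 (63.0%) differed among the 6 groups, beside 51.8% of all tested probe sets. By kind these were 8 of 9 carriers, 2 of 5 apolipoproteins, 5 of 9 coagulation genes, 7 of 13 complement genes and 7 of 10 acute phase genes. The familiar liver products Apoa1 (group means 42.4 to 57.8) and C3 (5.14 to 140.3) did not pass the filter, and Serpina1, which encodes alpha-1-antitrypsin, passed it but not the F test of limma (adjusted p = 0.717). Hp, which encodes the haemoglobin binder haptoglobin, was at 84.7 ± 28.4 in F1 and 151.9 ± 9.1 in ACI (SD, n = 5; adjusted p = 0.00364 in limma's F test), a call lost with centring (0.0619). Tf and Mst1r, the gene of the RON receptor, have no probe set under these symbols.

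Between Cop and F344 few genes of this list were called, as was so over all tested probe sets. Lcn2, a lipocalin made by epithelia, was higher in Cop by 4.50 (log2, SE 0.332) and Cp, which encodes the copper protein ceruloplasmin, was lower by 1.45 (SE 0.337, adjusted p = 0.00969 in limma). These were the only 2 of the 46 called, 1 higher and 1 lower, beside 1.69% higher and 1.77% lower of all tested probe sets. With array weights 5 were called, and the share of all tested was not counted there. The median difference of the list was -0.041, beside 0.027 over all tested probe sets. Cp was at 258.3 ± 109 in Cop and 713.6 ± 322 in F344 (SD, n = 5), the same direction as Fgg. Kng2, a kininogen gene (-1.31, SE 0.552), and Lbp, the lipopolysaccharide binding protein (-1.08, SE 0.342), had adjusted p of 0.252 and 0.0816 in limma and were not called.

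**Figure D5:**
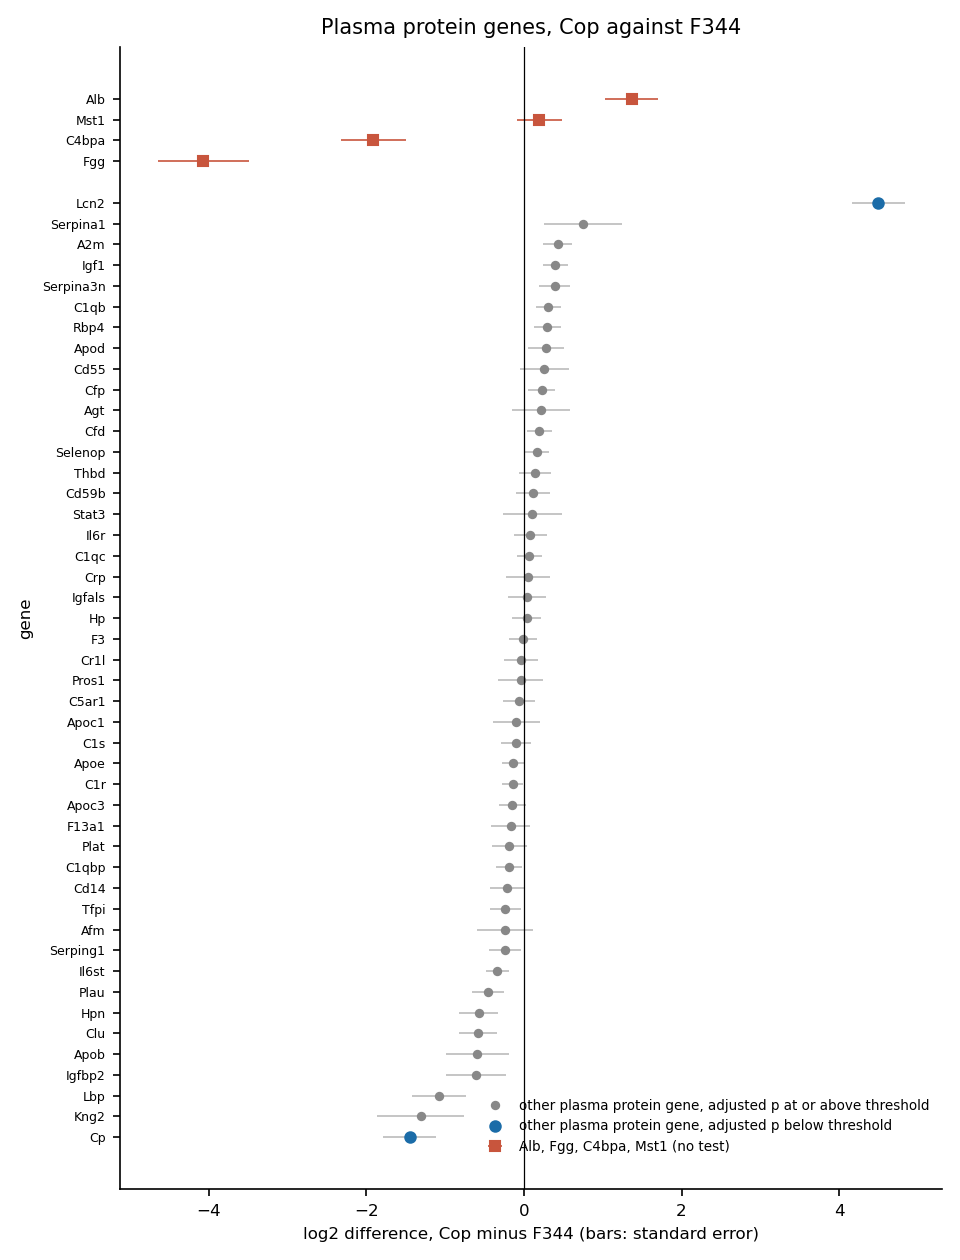
Differences between Cop and F344 on the log2 scale (x axis, with standard errors as bars) for the 46 tested plasma protein genes and, at the top as squares without a test, Alb, Mst1, C4bpa and Fgg at 1.37, 0.20, -1.91 and -4.07. Large points are the called genes Lcn2 (4.50) and Cp (-1.45), and most of the rest lie near 0.

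Against the mean of the parents, 9 of the 46 genes were higher and 7 lower in F1, near the 17.3% and 17.9% of all tested probe sets, and the median was -0.163, beside 0.016 over all tested. The split was 13 and 5 with arrays centred on their medians, and without F1 2 it was 5 and 5. The share of all tested probe sets called was not counted in these fits or in the other refits given below. Higher in F1 were Lcn2 by 2.25, the growth factor binding protein Igfbp2 by 1.71, the lipopolysaccharide receptor Cd14 by 1.14 and Apoe, the main apolipoprotein of tissue macrophages, by 0.89 on the log2 scale, with adjusted p in limma of 1.82e-06, 0.000271, 3.69e-05 and 9.25e-06. All of these stayed called without F1 2. Of the other Igfbp2 probe sets, J04486_at was called (1.15) and A09811cds_s_at was not (0.67, adjusted p = 0.105 in limma). The call of Apoe ended under quantile normalization (0.18, adjusted p = 0.0647 in limma). The calls of Apoc1, Cp, Lbp and Pros1 as higher ended without F1 2, with adjusted p in limma of 0.137, 0.0959, 0.0536 and 0.136. Those of Agt, Stat3 and Selenop as lower ended too (0.0924, 0.129 and 0.0732), as did Grb2 and B2m outside the list (0.167 and 0.0885). For Cp this was the probe set L33869_at. On rc_AA817854_s_at, with all arrays, Cp was higher in F1 by 1.37 (adjusted p = 3.25e-05 in limma). Lower in F1 were F3, the tissue factor gene, by -1.38 (adjusted p = 3.48e-07 in limma), the retinol carrier Rbp4 by -1.26 (9.26e-07) and the coagulation inhibitor Tfpi by -0.68 (0.00292). F3 had 473.4 ± 27.5 in Cop and 479.1 ± 30 in F344 against 183.7 ± 21 in F1 (SD, n = 5), outside both parents. Fgg in F1 lay between its parents and C4bpa at the level of Cop.

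Across the 2 other contrasts, 9 of the 46 plasma protein genes were higher and 6 lower in Cop and F344 than in BUF/N and WF, beside 14.3% and 19.7% of all (median 0.059, all tested -0.076). With arrays centred on their medians, which moved the median of all tested to 0.054, the split was 18 and 3, and with quantile normalization it was 12 and 5. Lower with C4bpa were Lcn2 (-2.90), Lbp (-1.67, adjusted p = 7.71e-06 in limma) and Igfbp2 (-1.43). Higher with Mst1 were F3 (0.90), Rbp4 (0.77), the complement genes C1s (0.60) and C1qb (0.58), and the selenium carrier Selenop (0.52). For BUF/N against the other 4 strains, 4 genes were higher and 10 lower, beside 8.43% and 9.6% of all (median 0.021, all tested 0.046), and 2 and 10 with centring. C1s, at 790.4 ± 265 in BUF/N and 1060 to 1438 in the other strains on average, was lower by -0.67 (SE 0.150, adjusted p = 0.00241 in limma), as were Rbp4 (-0.64), F3 (-0.55) and Selenop (-0.53). These values are of the brightest probe sets. On K03045cds_s_at and K03045cds_r_at, Rbp4 differed by -0.37 and 0.03 in BUF/N and was not called (adjusted p of 0.226 and 0.974 in limma). In the contrasts of F1 and of Cop and F344 above, Rbp4 was called on K03045cds_s_at in the same direction. On K03045cds_r_at it was not called there (0.283 and 0.0800). The call of F3 ended without BUF/N 3 (adjusted p = 0.0616 in limma). Without BUF/N 3 the list had 8 calls and without BUF/N 4 it had 9, with the share of all tested not counted in either fit.

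Hepatocyte genes other than secreted proteins were mostly dim. Of 35 on the array, 19 stayed below the overall median on all arrays and 10 passed the filter. All 10 that passed differed among groups in limma's F test, beside 51.8% of all. So did 14 of 15 fat cell genes and 15 of 16 luminal genes. The 10 were the C/EBP factors Cebpa, Cebpb and Cebpd, the gluconeogenic enzyme Pck1, arginase (Arg1), Ttpa, Asgr2, Cyp2e1, Ugt2b and Akr1d1. Cebpd was at 473.2 ± 112 in F1 and 187 ± 28.4 in ACI (SD, n = 5), with adjusted p = 4.09e-05 in limma's F test. On its probe set rc_AI045030_s_at, F1 and ACI were at 246.1 and 82.1 (0.00392). On rc_AA946292_at they were at 149.2 and 181.6, and Cebpd did not pass there (0.232). Cebpa, just past the threshold (0.0488), lost its call when most single arrays were left out, with 0.256 without ACI 5. Ttpa, the tocopherol transfer protein, was at 132.7 ± 9.37 in F344, 91.3 ± 23.5 in Cop and 26.7 ± 2.6 in WF (1.07e-08). Asgr2, a chain of the asialoglycoprotein receptor, was highest in Cop at 450.7 ± 114 (0.00124), and Cyp2e1 was highest in WF at 751.9 ± 567 and Cop at 628.4 ± 304 (0.00152). The factor Hnf4a (group means 20.6 to 54.4) and the urea cycle enzyme Cps1 (45.8 to 86.3) did not pass the filter. The summed signal of the 35 genes ran from 3375.6 to 5778.8 in Cop, 2982.9 to 4433.8 in F344, 2460.9 to 3734.5 in ACI, 3227.1 to 4990.5 in BUF/N, 3798.9 to 6339.8 in WF and 2786.2 to 4042.5 in F1. The part of liver cells or liver RNA in the levels of Alb, Fgg, C4bpa and Mst1 was not tested.

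The genes around Mst1 had their own patterns. Of 9 genes of the macrophage-stimulating protein and hepatocyte growth factor pathway on the array, 7 passed the filter. Of these, 5 differed among groups in limma's F test, beside 51.8% of all tested probe sets. Spint2, an inhibitor of the activating proteases, was at 3108 ± 671 in BUF/N and 1363 ± 204 in Cop (SD, n = 5; 0.79 higher in BUF/N than in the other strains on the log2 scale, adjusted p = 0.000357 in limma). Hpn, which encodes hepsin, had group means from 60.7 in ACI to 110.9 in F1 (adjusted p = 0.0109 in limma's F test). Met, the receptor for hepatocyte growth factor, had its highest mean in BUF/N at 147.9 ± 13.6 and its lowest in F1 at 79.6 ± 23.1 (0.0103), and Hgf ran from 46.2 in F1 to 97.3 in ACI (0.00372). The call of Met was lost when arrays were centred on their medians (adjusted p = 0.0549 in limma). The Met probe set Z46374cds_s_at did not pass limma's F test (0.111). In BUF/N, where Mst1 was lowest, Met and Hgf did not pass the test against the other strains (adjusted p of 0.106 and 0.616 in limma).

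Among 19 genes on the array whose products bind or recycle these proteins, 12 passed the filter and 5 differed among groups in limma's F test (beside 51.8% of all). Fcgrt, the receptor that returns albumin from endosomes, had group means between 2009 in ACI and 2897 in F1 and did not pass (adjusted p = 0.0673 in limma). Its partner B2m passed (0.00609), with 4820 ± 965 in F1 and 3377 to 3864 in the strains on average, but not under quantile normalization (0.159). Icam1, which binds fibrinogen, was at 409.7 ± 51.7 in F344 and 231.1 ± 68.1 in F1 (0.00654). Vtn, a plasma adhesion protein, was higher in Cop than in F344 by 0.58 (adjusted p = 0.0297 in limma), a call that ended when any 1 of 7 arrays of Cop or F344 was left out. Pros1, the partner of C4bpb, did not differ in the F test (0.166).

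The genes whose pattern over the 30 arrays was most like each of the 4 are named by the 5 highest correlations among tested probe sets of a gene, as descriptions. For Alb these were its own probe sets (0.94 and 0.881), Tspan8, a tetraspanin of epithelia (0.753), the platelet chemokine Pf4 (0.715) and Plpp1, a lipid phosphatase (0.698). For Fgg they were Spock2, a matrix proteoglycan (0.765), Cp (0.731), Grifin (0.717), the G protein subunit Gnb1 (0.702) and Il6st, the signal chain of the interleukin-6 receptors (0.69). For C4bpa they were the epithelial adhesion gene Epcam (0.799), Ctsc, the gene of cathepsin C (0.761), the receptor gene Erbb2 (0.758), the calcineurin subunit Ppp3r1 (0.75) and Casp6 (0.748). For Mst1 they were the mast cell protease Mcpt1l1 (0.839), Tspan8 (0.823), the mast cell carboxypeptidase Cpa3 (0.809), the leukotriene enzyme Lta4h (0.803) and Pde2a (0.774). Much of this likeness lay between groups. With group means removed, Spock2 and Fgg correlated at 0.027, Tspan8 and Mst1 at -0.082 and Cpa3 and Mst1 at 0.126, while Cp and Fgg correlated at 0.548 and Epcam and C4bpa at 0.518.

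Markers of other cells are given as measured. Epcam was at 725 ± 202 in Cop, 1240 ± 257 in F344, 1095 ± 201 in ACI, 1664 ± 231 in BUF/N, 1744 ± 332 in WF and 1021 ± 500 in F1 (SD, n = 5), lowest in Cop as C4bpa was. Epcam was found through its likeness to C4bpa on these same arrays, so this shared order is no separate finding. Of 16 luminal genes tested, 1 was higher and 12 lower in Cop and F344 than in BUF/N and WF, beside 14.3% and 19.7% of all tested. In F1, 11 were higher and 0 lower than the mean of its parents, beside 17.3% and 17.9%. Centring changed the first split to 1 and 11 and the second to 12 and 0. The summed signal of the 18 luminal genes ran from 7618.4 to 16031.4 in Cop, 12020.4 to 16636.4 in F344, 17581.4 to 27665.7 in ACI, 19856.6 to 38305.0 in BUF/N, 15969.0 to 33607.0 in WF and 24679.6 to 42482.1 in F1. F1 thus had the highest luminal sum and, with Cop, the lowest C4bpa. The mean of the luminal genes correlated with C4bpa at r = 0.309 over the arrays and -0.011 with group means removed, and with Mst1 at -0.582 and -0.549. Its part in these levels was not tested.

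Some genes known from mast cells were lower in BUF/N, as Mst1 was, and 2 of them, Cpa3 and Mcpt1l1, were found through their likeness to Mst1. Cpa3 was at 275 ± 51.8 in BUF/N and at 615.6 to 853.8 on average in the other groups (adjusted p = 5.97e-09 for BUF/N in limma), and the chymase Cma1 was at 606.6 ± 92.8 against 922.9 to 1283 (8.32e-07). Mcpt1l1 was at 240.2 ± 66.5 in BUF/N and 581.3 to 871.8 elsewhere. Tpsab1, a mast cell tryptase, was at 117.4 ± 21.9 in BUF/N and at 88.5 ± 8.11 in F344, and it did not pass for BUF/N (0.0673). The whole leukocyte list of 18 genes summed to 6501.3 to 9424.1 in BUF/N and 6056.5 to 11093.3 across the other groups. Of its 14 tested genes, 1 was higher and 2 were lower in BUF/N, beside 8.43% and 9.6% of all tested probe sets. None of the leukocyte genes named here was at 0 in any group. The part of mast cells in the level of Mst1 was not tested.

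Fat cell and muscle markers also split the groups. Of 15 fat cell genes tested, 11 were higher and 0 lower in Cop and F344 than in BUF/N and WF, and of 15 skeletal muscle genes, 13 were higher and 0 lower (beside 14.3% and 19.7% of all). The summed signal of 17 muscle genes ran from 814.0 to 25914.3 in Cop and from 387.7 to 3767.5 in F1. The mean of the muscle genes correlated with Alb at -0.055, with Fgg at 0.104, with C4bpa at -0.013 and with Mst1 at 0.139 over the 30 arrays. The mean of the 46 plasma protein genes correlated with Fgg at 0.464 over the arrays and at 0.692 with group means removed, and with Alb, C4bpa and Mst1 at 0.242, 0.244 and 0.234 with group means removed. These describe 30 arrays that share their scaling.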

How the data were processed

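Rat mammary gland RNA (5 µg of total RNA per sample, per the labels' protocols) was measured on 32 oligonucleotide arrays of 8799 probe sets. The deposited values are linear signal intensities per probe set, made by the authors with Affymetrix Microarray Suite 5.0, per the submitters' processing notes. The deposited arrays had a 2% trimmed mean of 250.3 to 250.4. Scanner files, build and batch were not used here. The number of arrays limits the precision, and no counting depth applies.

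Arrays were rescaled to a common 2% trimmed mean, floored at 18.3 and taken to log2. The 5040 probe sets above the overall median of 78.4 on at least 5 of 30 arrays were fitted over all 6 groups with limma 3.58.1 in R 4.3.3 (trended empirical Bayes, Benjamini-Hochberg over all tested, threshold 0.05, 2-sided); pools were left out. The fit was tested on simulated data. Gene symbols came from the platform annotation, updated by identifier, and 7018 probe sets had 1 symbol, 308 several and 1473 none. A gene of a list was represented by its brightest probe set, and other probe sets of the same gene can read otherwise. The genes named were the 4 of each list with the smallest p, a fixed set of partners and the 5 most alike in pattern; other genes were named after their values were seen. The 4 genes and all lists were chosen with earlier results of these data known. Alternatives were other floors, an offset, filters, quantile normalization, centring, array weights, a replicate block, no variance trend, pools as samples, probe set means, and arrays left out. A fold against a group wholly below the floor is a lower bound taken against the floor.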

Additional observations from a re-analysis of the deposited data

Results flagged for a closer look

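In 46 groups of 5 arrays examined on floored log2 signals for a single array far from the other 4, 4 held one. Chance flags about 1 in 20 groups, but that rate does not hold where arrays are tied at the floor. All 4 were of Alb, which has 4 of the 8 probe sets, read on the same arrays. On rc_AA866237_s_at, BUF/N 5 was at 198.9 and the other BUF/N arrays at 62.5 to 69.7. On rc_AA945321_at, BUF/N 5 was at 51.3 against 4.7 to 10.8, where the other 4 arrays were all below the floor and any array above it would be flagged. On the same probe set, F1 2 was at 490.0 against 10.1 to 43.6, with 2 F1 arrays below the floor. On the dim rc_AA860062_at, F344 3 was at 27.1 against 5.8 to 20.4, close to the floor of 18.3, with 3 F344 arrays below it.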

How the results depend on the processing

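No difference changed sign under the alternatives run among those that were called. For Cop against F344, Fgg moved to -4.768 and -2.698 (log2) with the floor at the 10th and 40th percentile, to -2.562 with an offset of 50 and to -2.711 with probe sets averaged, and C4bpa to -1.213 with the 40th percentile and -1.019 with the offset. Alb moved to 1.837 with probe sets averaged. The floors and the offset change how low signals enter, while averaging changes which probe sets enter. The cause of these moves was not tested. Array weights gave 5 called plasma protein genes in place of 2, and the cause was not tested. With each array left out in turn, the called plasma protein genes numbered 10 to 22 for F1 against its parents and 8 to 15 for BUF/N. The share of all tested probe sets called was not counted under the alternatives. Fgg had no value with a filter of 15 arrays. No general pairing of samples by replicate number was seen. Deviations of 75 same-numbered pairs correlated at -0.452 to 0.398, with 16 over 0.1. Their median was -0.016, beside 0.006 for pairs with other numbers, and 5 arrays correlated best with their own number. Correlations over all tested probe sets cannot exclude that some samples were paired. Each group holds each replicate number once, so a replicate block cannot change a difference between groups. With it, Cop against F344 therefore stayed at 1.365 for Alb, -4.071 for Fgg, -1.913 for C4bpa and 0.196 for Mst1, and 2 plasma protein genes were called. Of 313 other differences of the 4 genes under alternatives, 304 moved by less than 1 SD and 9 by more. Among the 9 were moves of Mst1 in BUF/N against the other 4 strains (-2.623 to -1.653 over the alternatives). Moves of Alb on rc_AA945321_at for Cop against F344 (1.482 to 2.711) were among them too. The filters, the variance trend, the replicate block and a fit of only the arrays compared cannot change a difference of group means. Those fits are among the 304 by design. Of 810 F tests of named genes under alternatives, 15 lost and 13 gained a call.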

Other observations

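Besides the genes bright on F1 2, Plg and C3 were each at least 2-fold higher on 1 array than on any other. Plg, the plasminogen gene, was at 358.0 on WF 5 and at no more than 14.3 on any other array. C3, the central complement component, was at 570.0 on BUF/N 3 and at no more than 113.0 elsewhere.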
